A study of Homo sapiens with 4 samples.

Results

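Genes of ribosome biogenesis and the nucleolus were examined in 2 cell lines of human non-small cell lung cancer transfected with siRNA against hMOF, the histone H4 acetyltransferase encoded by KAT8. The 37 genes were a list of factors of rRNA transcription, rRNA processing and subunit assembly, chosen with earlier results of these data known. Each was read at the probe set that the annotation assigns to that gene alone and that had the highest mean signal of the 4 arrays. Of the 37 genes, 33 had such a probe set, out of 19775 genes with one on the array, and all 33 passed the filter on low signal. The probe sets of NOP56 (2), DKC1 (3) and BOP1 (2) carried the names of several genes, and none carried the name of GNL3, so these 4 genes were not analysed here.

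The 4 groups of 1 array each were H1299 with hMOF siRNA, H1299 with scramble siRNA, A549 with hMOF siRNA and A549 with scramble siRNA. Both lines grew in medium with 10% fetal bovine serum and received siRNA with Lipofectamine 2000. H1299 was derived from a lymph node metastasis and A549 from a lung adenocarcinoma. The siRNA groups follow the source names of the arrays, since the treatment tag contradicts the source name on 2 of the 4. No group was repeated, so the lines were the repeats of the siRNA comparison and the siRNAs were the repeats of the line comparison. Precision is limited by how few arrays there are.

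A few facts of the whole set bear on the values below. Array medians lay between 73.3 and 75.3 signal units. KAT8 signal was 61.8 with hMOF siRNA and 241 with scramble in H1299, and 106 and 402 in A549, so 25.6% and 26.4% of the signal was left. The 3'/5' signal ratio of the ACTB control probe sets, which rises as RNA degrades, was 2.64 with hMOF siRNA and 2.89 with scramble in H1299, and 2.78 and 3.11 in A549. That of the GAPDH control probe sets was 1.09 and 1.10 in H1299 and 1.20 and 1.18 in A549. Their part in the results was not tested. Of the epithelial markers, CDH1 stood at 7.61 and 8.04 in H1299 (hMOF siRNA, scramble) and at 1562 and 1535 in A549, and the 6 markers together summed to 2821 and 3740 in H1299 and to 26546 and 28772 in A549. The 4 mesenchymal markers together summed to 19336 and 19891 in H1299 and to 25670.1 and 23812 in A549. Of these, VIM and ZEB1 were higher in H1299, and FN1 (1855 and 2494 in H1299, 10119 and 11066 in A549) and CDH2 (930.45 and 766 in H1299, 3733 and 2849 in A549) were lower. Of 6 immune and blood markers 5 were on the array and 2 passed the filter, and their sums ran from 315 to 444.

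Ribosomes are built in the nucleolus. RNA polymerase I transcribes the rRNA precursor, small nucleolar ribonucleoproteins (snoRNPs) guide its methylation and pseudouridylation, and separate sets of factors assemble and mature the small and the large subunit. Many of these genes are known targets of the transcription factor MYC, and tumour cells usually express them at high levels.

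With hMOF siRNA 1 of the 33 measured genes rose, NOLC1, and 1 fell, POLR1A. The other 31 did not pass the test, and 7 of the 33 (21.2%) had an unadjusted p under 0.05, against 23.8% of all genes tested. The test was limma over all arrays, blocked by cell line, on log2(signal + 29.03), where 29.03 is an offset that damps ratios of dim probe sets, and with Benjamini-Hochberg adjustment over 12830 genes at a threshold of 0.05. Of all genes tested 1.16% were called higher and 2.41% lower (3.57% in all), and a single gene of 33 in each direction is near that background. In bulk RNA, fewer expressing cells and less RNA per cell cannot be told apart. The median log2 difference of the 33 genes was 0.07 in H1299 and −0.16 in A549, against −0.01 and −0.02 over all genes tested. The A549 median depended on the scaling, at −0.09 both after quantile normalization and after a loess of ratio on signal. The A549 median over all genes moved as well, to 0.0227 after quantile normalization and 0.0035 after the loess. At a fixed 2-fold size within a line, NOLC1 was the single gene past it in H1299 (1.22% of all genes were 2-fold higher and 2.21% lower) and also in A549 (0.717% higher and 1.14% lower).

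**Figure D1:**
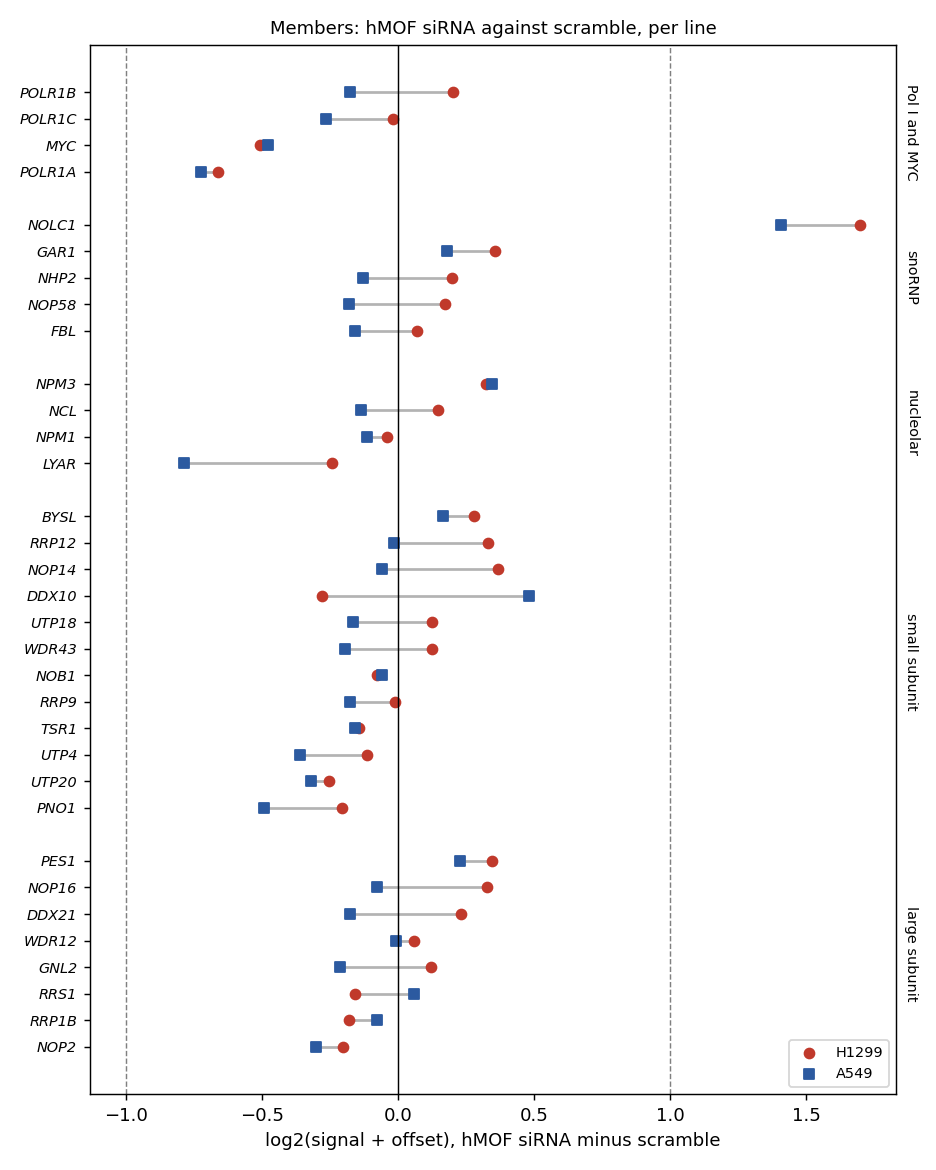
Difference between hMOF siRNA and scramble for the 33 measured genes, on the log2(signal + offset) scale, with circles for H1299, squares for A549, grey bars joining the lines and dashed lines at 2-fold. NOLC1 stands apart at 1.70 in H1299 and 1.41 in A549, while POLR1A and MYC are lowest among genes with nearly equal values in both lines.

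RNA polymerase I genes and MYC came first in the pathway. POLR1A encodes the largest subunit of RNA polymerase I, which holds part of the catalytic centre. Its signal was 75.04 with hMOF siRNA and 136 with scramble in H1299, and 233 and 404 in A549. The signal was lower with hMOF siRNA within each line, while the siRNA groups overlapped across lines because A549 was higher throughout. POLR1A fell by 0.66 in H1299 and by 0.72 in A549 on the log2 scale, and limma gave an adjusted p of 0.0483 (mean −0.69 ± 0.04, SD, n = 2 lines). That call was marginal. With hMOF siRNA in H1299 the POLR1A signal, 75.04, lay below the filter of 78.1 set on the mean signal, near that array's median of 73.7. Over 11 alternative settings that kept the block, adjusted p values lay between 0.0373 and 0.121, and 6 of the 11 kept the call. The other POLR1A probe sets differed less, at −0.36 for 235280_at and −0.03 for 222704_at (means over both lines), against −0.69 for 228515_at.

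MYC, the transcription factor that activates ribosome biogenesis genes, had signals of 2113 with hMOF siRNA and 3018 with scramble in H1299. In A549 its signals were 1584 and 2220. Both differences were of like size, −0.51 in H1299 and −0.48 in A549, yet MYC was not called (adjusted p = 0.0790 by limma; mean −0.49 ± 0.02, SD, n = 2 lines). The adjusted p stayed above the threshold under all 10 alternatives that kept the block, at 0.0647 to 0.0896. POLR1B, the second largest subunit of the polymerase, was at 0.20 in H1299 and −0.18 in A549. POLR1C, a subunit shared by RNA polymerases I and III, was at −0.02 and −0.27. Neither passed.

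**Figure D2:**
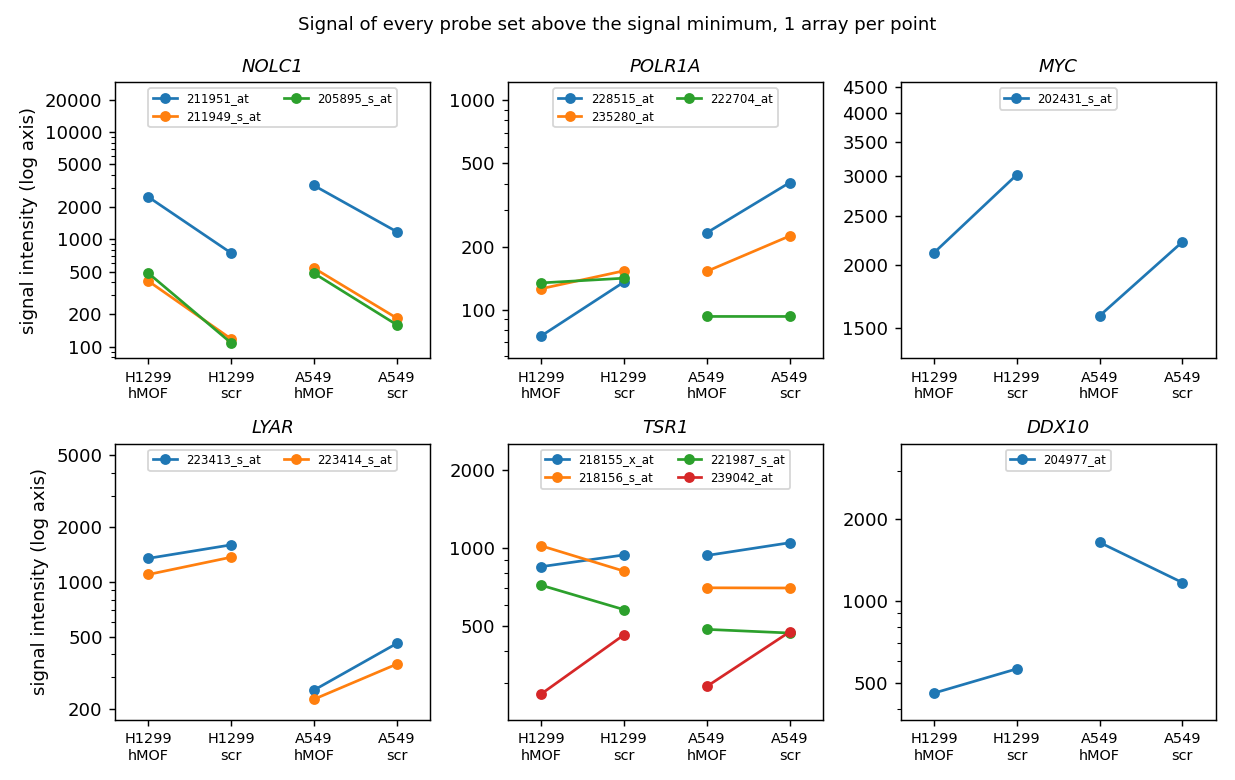
Signal of each probe set above the signal minimum for 6 genes, on log axes whose ranges differ between panels, with 1 point per array and lines joining hMOF siRNA to scramble within a cell line. All 3 NOLC1 probe sets are higher with hMOF siRNA in both lines, the POLR1A probe sets differ from each other, the 4 TSR1 probe sets do not share a direction, and LYAR is higher in H1299 than in A549 on both of its probe sets.

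NOLC1 encodes Nopp140, a heavily phosphorylated nucleolar protein that associates with both classes of snoRNP. Its signal (probe set 211951_at) was 2484 with hMOF siRNA and 746 with scramble in H1299, and 3181 and 1180.04 in A549. Both hMOF siRNA arrays stood above both scramble arrays, at 3.33 times the scramble signal in H1299 and 2.70 times in A549. NOLC1 rose by a mean log2 difference of 1.55 ± 0.20 (SD, n = 2 lines; SE 0.13; limma adjusted p = 0.0288), and the call held under all 11 alternatives that kept the block. The gene was measured by 3 probe sets. On 211949_s_at the signals were 408 and 118 in H1299 and 540.14 and 185 in A549 (hMOF siRNA, scramble). On 205895_s_at they were 484 and 108 in H1299 and 483 and 160.04 in A549. The log2 differences of these probe sets were 1.57 and 1.41, and 1.90 and 1.44, so all 3 gave a difference above 2-fold in each line.

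Of the snoRNP proteins that NOLC1 associates with, the 4 measured did not pass the test, and NOP56 and DKC1 were not analysed. GAR1, a subunit of the H/ACA particles that direct pseudouridylation, was at 0.36 in H1299 and 0.18 in A549 (1605 and 1247 in H1299, 992 and 872 in A549, hMOF siRNA and scramble). NHP2, another H/ACA subunit, was at 0.20 and −0.13. Of the C/D particles that direct 2'-O-methylation, the methyltransferase FBL was at 0.07 and −0.16 and the scaffold protein NOP58 at 0.17 and −0.18. These 4 genes had limma adjusted p between 0.245 and 0.987. All of their H1299 values lay above 0, and 3 of their 4 A549 values lay below 0.

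Among abundant nucleolar proteins none was called. NPM1, the histone chaperone nucleophosmin, had signals of 14016 with hMOF siRNA and 14439 with scramble in H1299, and 12130.32 and 13138 in A549. Its log2 differences were −0.04 and −0.11, and its other 2 probe sets gave means of −0.05 and −0.03. NCL, the rRNA-binding protein nucleolin, was at 0.15 in H1299 and −0.14 in A549. NPM3, a nucleophosmin relative, had nearly equal values in the lines, 0.32 and 0.35 (limma adjusted p = 0.154). LYAR, a zinc finger nucleolar protein, was at −0.24 in H1299 and −0.79 in A549 (limma adjusted p = 0.154). Its signal was 1351 with hMOF siRNA and 1603 with scramble in H1299, and 253 and 458 in A549. Its other probe set, 223414_s_at, gave −0.31 and −0.58.

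The small subunit genes, 12 in number, had mean log2 differences from −0.35 to 0.22 and none passed. Below 0 in both lines lay 6 of the 12, with TSR1 counted on its representative probe set. PNO1, which holds the 3' end of 18S rRNA before its last cleavage, was at −0.21 in H1299 and −0.50 in A549, with signals of 697 and 809 in H1299 and 793 and 1129.82 in A549 (hMOF siRNA, scramble). All 3 of its probe sets were below 0 in both lines. UTP20, a large scaffold of the small subunit processome, was at −0.26 and −0.32, and UTP4, a subunit of its first-binding module, at −0.12 and −0.36. The endonuclease NOB1, which makes that last cleavage, was at −0.08 and −0.06. BYSL, a factor of pre-40S particles, was the 1 gene of the 12 above 0 in both lines, at 0.28 and 0.16. In 4 others the lines took opposite signs with H1299 above 0, namely NOP14 (0.37 and −0.06), RRP12 (0.33 and −0.02), UTP18 (0.12 and −0.17) and WDR43 (0.12 and −0.20). RRP9, a U3 snoRNP protein, was at −0.01 and −0.18.

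DDX10 and TSR1 need their values by array. DDX10, a DEAD-box RNA helicase, stood at 458 with hMOF siRNA and 562 with scramble in H1299, and at 1641 and 1167 in A549. Its differences, −0.28 and 0.48, were thus of opposite sign, with A549 as the line above 0. TSR1, a GTPase-like factor of late 40S maturation, had 4 probe sets that disagreed. The representative one, 218155_x_at, gave a mean of −0.15 over both lines. The means were 0.16 for 218156_s_at, 0.17 for 221987_s_at and −0.67 for 239042_at, whose signal was 272 with hMOF siRNA and 461 with scramble in H1299 and 291 and 473 in A549. No direction was assigned to TSR1.

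None of the 8 large subunit genes measured was called, and their mean log2 differences ran from −0.25 to 0.28. PES1, a subunit of the PeBoW complex that processes large subunit precursors, was at 0.34 in H1299 and 0.23 in A549. Its signals were 1017 and 796 in H1299 and 818 and 695 in A549 (hMOF siRNA, scramble). Its complex partner WDR12 was at 0.06 and −0.01. NOP2, a 28S rRNA cytosine methyltransferase, was at −0.20 and −0.30, and RRP1B, a nucleolar protein of large subunit processing, at −0.18 and −0.08. The GTPase GNL2 (0.12 and −0.21), the helicase DDX21 (0.23 and −0.18) and NOP16 (0.33 and −0.08) were above 0 in H1299 and below 0 in A549. RRS1, which brings the 5S ribonucleoprotein to the particle, was at −0.16 and 0.06. Limma adjusted p for the 8 genes lay between 0.212 and 0.936.

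A common feature of these small values was their order between lines. In 27 of the 33 genes the difference in H1299 lay above that in A549, or 81.8%, against 53.1% of all genes tested. Signs were opposite in 15 genes, 13 of them above 0 in H1299 and below 0 in A549 (39.4%, against 16.9% of all genes), and 2 the other way (6.06%, against 14.8%). The median of the H1299 difference less the A549 difference was 0.23, against 0.02 over all genes. Genes as bright as these (2382 genes within the quartiles of their mean signals, 789.6 to 1902.5) had a median of 0.02 as well. The 27 became 25 after quantile normalization and 24 after the loess, and the 13 became 10 and 11. No test of the contrast between lines is possible with a single pair of arrays in each, and the choice of the list was made with these results known.

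**Figure D3:**
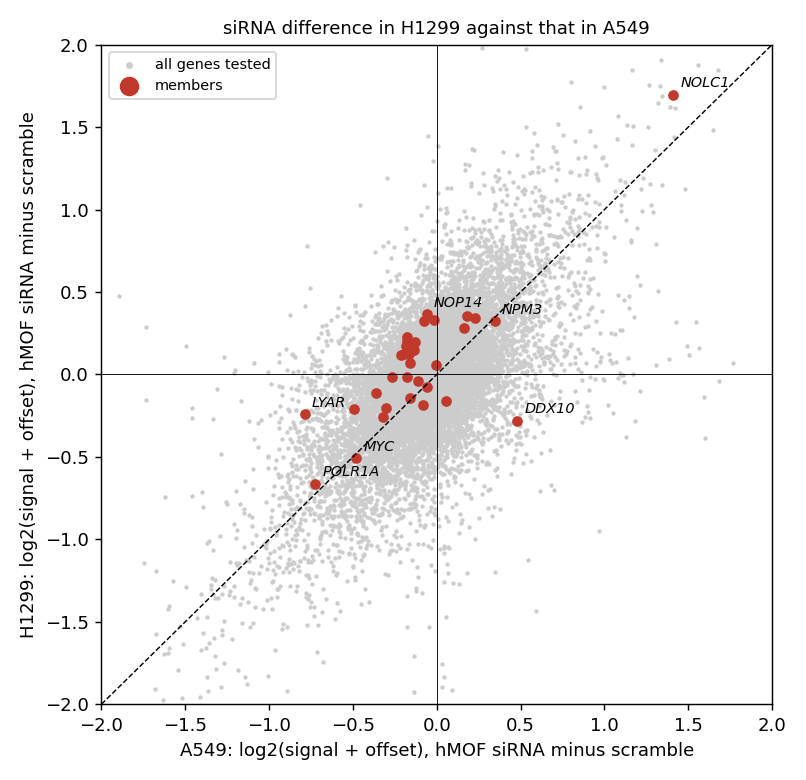
Difference between hMOF siRNA and scramble in H1299 (vertical axis) against that in A549 (horizontal axis), both on the log2(signal + offset) scale, for all genes tested in grey and the 33 ribosome biogenesis genes in red, with a dashed line of equal values. Of the red points 27 lie above the dashed line, DDX10 lies below it, and 33 of the grey genes fall outside the plotted range.

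The rest of the pathway was followed in 150 further genes on 6 lists, of which 142 were tested. None was called higher and 2 were called lower, against 1.16% and 2.41% of all genes tested, so these counts are not above that background. ZNHIT6, an assembly factor of C/D snoRNPs, fell to 702 with hMOF siRNA, against 1170.15 with scramble in H1299, and to 269 against 529.7 in A549 (log2 −0.71 and −0.91; limma adjusted p = 0.0434). BCCIP, known as a BRCA2 and CDKN1A interactor and placed here among large subunit factors, fell to 456 against 1502 in H1299 and to 802 against 2128 in A549 (−1.66 and −1.38, limma adjusted p = 0.0288). ZNHIT6 had 2 single-gene probe sets and BCCIP 3, and each gene was read at its brightest only. Neither call was examined under the alternative settings. By list, 1 of 11 snoRNP assembly genes and 1 of 51 large subunit genes were called, and 0 of 13 RNA polymerase I genes, 0 of 45 small subunit genes, 0 of 13 exosome genes and 0 of 9 MYC network genes. Limma gave 38 of the 142 (26.8%) an unadjusted p under 0.05, against 23.8% of all genes tested. Their medians were 0.03 in H1299 and −0.05 in A549, and in 97 of 142 (68.3%) the H1299 difference lay above that in A549. By list that share was 77.8% for small subunit and 76.5% for large subunit genes, near the 81.8% of the 33 genes. It was 61.5% for exosome, 54.55% for snoRNP assembly and 53.85% for RNA polymerase I genes, against 53.1% of all genes tested. The 9 MYC network genes tested went the other way, with 2 of 9 above, and their medians were −0.19 in H1299 and −0.22 in A549.

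The lines themselves were compared in the same fit, blocked by siRNA. By limma 11 of the 33 genes stood higher in H1299 and 4 lower, against 25.1% and 27.3% of all genes tested, so the total share called, 45.5%, was below that of all genes, 52.4%. The median log2 difference of the 33 was 0.24 (0.33 under hMOF siRNA, 0.14 under scramble), against −0.03 over all genes.

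LYAR differed most among the 33. Its signal in H1299 was 1351 and 1603, and in A549 253 and 458 (hMOF siRNA, scramble). Each H1299 array stood above each A549 array. The mean log2 difference was 2.02 ± 0.39 (SD, n = 2 siRNAs; limma adjusted p = 9.09e-04), and 2.01 on its other probe set. LYAR was the only one of the 33 genes that was 2-fold higher in H1299 under both siRNAs (7.26% of all genes were).

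NOP14, a small subunit processome protein, was higher in H1299, with 1185 and 912 in H1299 and 519 and 543 in A549 (0.93 ± 0.30; limma adjusted p = 0.00603). POLR1C had 894 and 906 in H1299 and 431 and 525 in A549 (0.88 ± 0.18; limma adjusted p = 0.00412), and its other probe set gave 0.72. Groups did not overlap for either gene. The other 8 called higher were BYSL (0.62), GNL2 (0.60), GAR1 (0.59), UTP18 (0.49), RRS1 (0.44), NOB1 (0.43), MYC (0.42) and WDR12 (0.41), with limma adjusted p from 0.00897 to 0.0323. MYC signal was 2113 and 3018 in H1299 and 1584 and 2220.01 in A549, so that the lines overlapped while each siRNA kept the order.

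On representative probe sets, 4 genes were called lower in H1299. Of these, DDX10 had 458 and 562 in H1299 and 1641 and 1167 in A549 (−1.40 ± 0.54, SD, n = 2 siRNAs, limma adjusted p = 0.00504). RRP12, known in yeast as a pre-ribosome export factor, had 363 and 283 in H1299 and 480 and 486 in A549 (−0.55; limma adjusted p = 0.0231). NOLC1 was lower by a smaller amount, at −0.50 (limma adjusted p = 0.0264), than the amount by which it rose with hMOF siRNA. On that probe set the lines overlapped while each siRNA kept the order. The other NOLC1 probe sets gave −0.46 (211949_s_at) and −0.23 (205895_s_at), the latter with 0.0015 under hMOF siRNA. POLR1A was at −1.36 ± 0.04 on 228515_at (limma adjusted p = 8.21e-04). Its other probe sets gave −0.35 (235280_at) and 0.45 (222704_at), so the direction between lines depended on the probe set. Among the POLR1A probe sets, 228515_at was the dimmest in H1299 (75.04 and 136, hMOF siRNA and scramble) and the brightest in A549 (233 and 404). The rule of highest mean thus chose it through A549. DDX10, and POLR1A on 228515_at only, were 2-fold lower under both siRNAs (9.85% of all genes were).

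**Figure D4:**
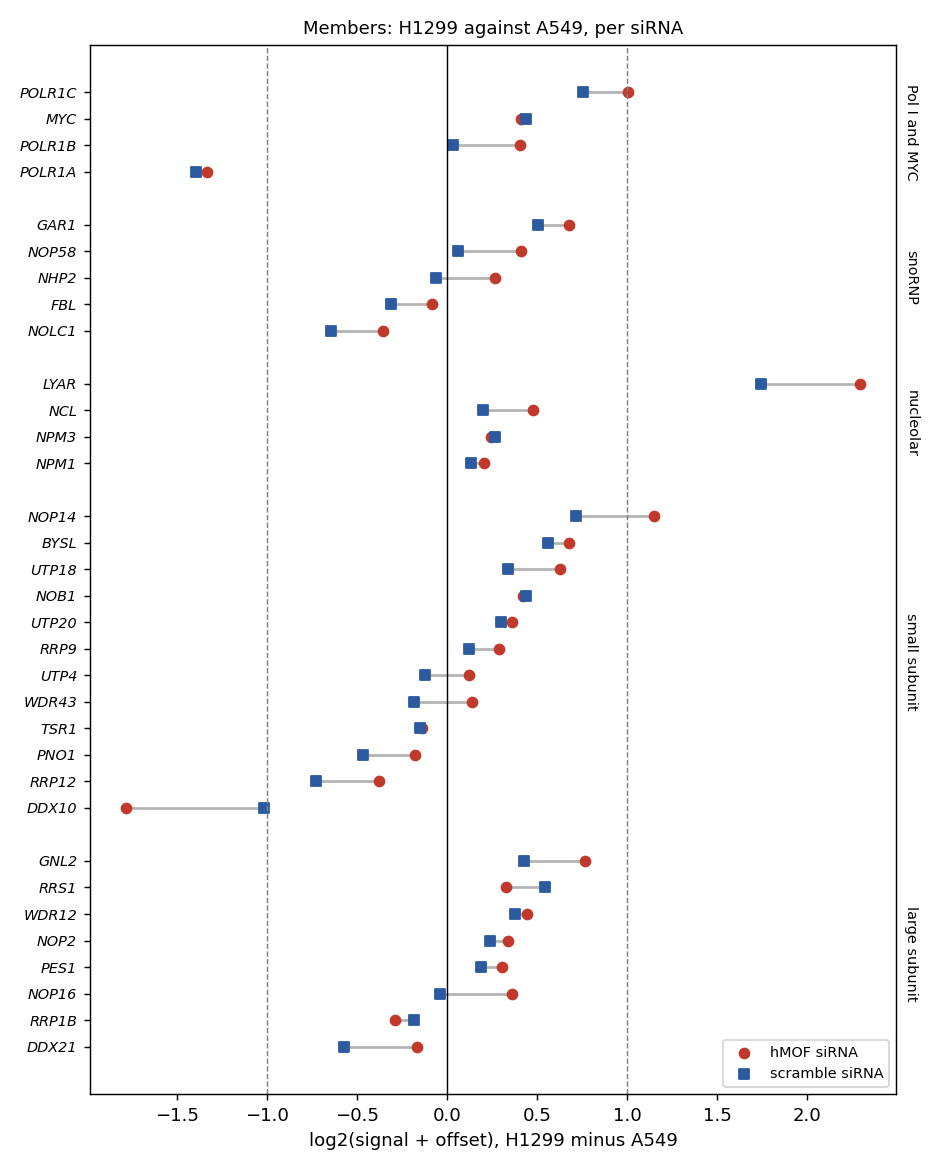
Difference between H1299 and A549 for the 33 measured genes, on the log2(signal + offset) scale, with circles for hMOF siRNA, squares for scramble siRNA and dashed lines at 2-fold. LYAR lies furthest to the right, at 2.29 with hMOF siRNA and 1.75 with scramble. DDX10 and POLR1A (on 228515_at) lie beyond 2-fold to the left under both siRNAs.

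The promoters of these genes often held an E-box. Many of the genes are known MYC targets, so the share with this site may not be independent of the list. The E-box CACGTG is the core site of MYC and its partner MAX and reads the same on both strands. It was searched in RefSeq promoter windows of GRCh38.p14 that run from 250 bases before to 50 after an annotated start. The table held 36 windows for 30 of the 37 genes. It did not list NOLC1, MYC, NOP58, BOP1, RRP12, RRS1 or RRP1B. Of the 36 windows 16 held an E-box (44.4%), against 7.26% of the 35116 windows in the table. Counted by gene it was 16 of 30 (53.3%), against 10.9% of 15843 protein-coding genes. Of the 17 E-boxes 15 began within 40 bases of the start, 6 of the 17 before it and 11 after it. A match describes the letters only and is not evidence of binding.

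The windows below belong to the 6 genes that both held an E-box and were called higher in H1299, and the E-box is in capitals. Each is given 5' to 3' on the strand of its gene.
LYAR chr4:4290068-4290097, minus strand: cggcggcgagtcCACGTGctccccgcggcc
NOP14 chr4:2963374-2963403, minus strand: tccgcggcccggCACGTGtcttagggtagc
GNL2 chr1:37595917-37595946, minus strand: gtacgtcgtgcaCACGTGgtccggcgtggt
GAR1 chr4:109815781-109815810, plus strand: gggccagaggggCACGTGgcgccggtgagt
BYSL chr6:41921515-41921544, plus strand: ttcttcagtcccCACGTGcgatccttcccg
UTP18 chr17:51260445-51260474, plus strand: gggagtgctggtCACGTGgcaagaggctgc
UTP18 chr17:51260538-51260567, plus strand: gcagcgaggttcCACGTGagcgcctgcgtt
The UTP18 window holds an E-box on either side of the start, 89 bases before it and at base 5 after it. LYAR has its E-box 64 bases before 1 of 2 annotated starts.

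With hMOF siRNA, the 15 measured genes that held an E-box had medians of 0.12 in H1299 and −0.18 in A549, and the 12 without had medians of 0.02 and −0.12. None of the 15 and 1 of the 12, POLR1A, was called for the siRNA, against 3.57% of all genes tested. Between lines the medians were 0.29 with an E-box and 0.20 without. Called higher in H1299 were 6 of the 15 and 3 of the 12, against 25.1% of all genes tested. Called lower were 0 of the 15 and 2 of the 12, against 27.3% of all genes tested. These are descriptions, and the split was not tested.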

How the data were processed

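Total RNA was measured on 4 Affymetrix arrays, from 6 ug per sample per the labels. The authors deposited a linear signal intensity for each of 54675 probe sets, made with MAS5 per the submitters' processing notes; the sources used here name neither its version nor its scaling target. MAS5 values vary most at low signal. Genes were named through the platform annotation (41091 probe sets with 1 gene, 1801 with several, 11721 without and 62 controls), and 0 symbols changed against RefSeq GRCh38.p14.

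The offset, 29.03, was the 20th percentile of all signals. Probe sets were kept at a mean signal of 78.1 or more, the 50th percentile, which left 12830 of 19775 genes. Log2 values were tested with limma 3.58.1 in R 4.3.3, with terms for line and siRNA (1 residual and 3.74 prior degrees of freedom). The labels do not say whether cultures were repeated. The residual of each gene is how far its siRNA difference departs between the lines, and the prior draws on the variance of all genes. The spread behind the p values may therefore be technical or a true difference between lines. The procedure was run on simulated data with additive effects of line and siRNA and the spread that limma itself assumes. Such data cannot show how it performs where the lines respond differently. The text names KAT8, all listed genes, and those genes of the wider lists that limma called. Other genes are named in the closing section after their values were seen. Members and lists were chosen with earlier results of these data known. Alternatives changed the offset, filter, scaling, probe set rule, block and prior, and figures used matplotlib 3.10.9.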

Additional observations from a re-analysis of the deposited data

Results flagged for a closer look

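In 15 of the 33 genes the difference between hMOF siRNA and scramble had opposite signs in H1299 and A549, with 1 pair of arrays per line, so the contrast between lines was not tested. The H1299 difference less the A549 difference (log2) was 0.43 for NOP14, 0.41 for DDX21, 0.40 for NOP16, 0.38 for POLR1B, 0.35 for NOP58, 0.35 for RRP12, 0.34 for GNL2 and 0.33 for NHP2. It was 0.32 for WDR43, 0.29 for UTP18, 0.28 for NCL, 0.23 for FBL and 0.067 for WDR12. The other two ran the opposite way, DDX10 at −0.76 and RRS1 at −0.22.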

How the results depend on the processing

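Arrays were paired by cell line (or by siRNA) through the block of the fit, and no replicate numbers could serve as a further block because each group has 1 array. Without the block limma called 0 of the 33 genes higher and 0 lower for the siRNA, and 0 and 0 of all genes (1 of the 33 and 350 of all at an unadjusted p under 0.05), and between lines 5 and 2 of the 33 and 2015 and 2286 of all genes. The fall in POLR1A was not called with an offset at the 40th percentile, no filter, median centring or averaged probe sets, which left 0 genes called lower, or with second probe sets throughout (limma adjusted p = 0.0827). Over all genes limma called 149 higher and 309 lower for the siRNA, against 282 and 366 after quantile normalization, 293 and 410 after the loess, which was chosen after seeing the data, and 333 and 652 on second probe sets. Only 5912 genes and 15 of the 33 had a second kept probe set, and limma called 16.7% of those 5912, against 3.57% of 12830, so calls there are not comparable gene by gene. LYAR was called lower there (−0.45; limma adjusted p = 0.0321), with a smaller difference than on its representative probe set. Second probe sets gave 7 of 15 genes higher between lines and 4 lower, and 1661 and 1568 of 5912 over all genes. On them UTP4 was at −0.39 (limma adjusted p = 0.0186) and TSR1 at 0.36 (limma adjusted p = 0.0321) between lines, against 0.0005 and −0.15 on the representative ones; the cause was not tested. DDX21 (−0.45), NPM1 (0.38) and POLR1B (0.50) also gained a call between lines on second probe sets, with the sign of the representative ones. Leaving out a line, the median of the 33 genes ran from −0.16 to 0.07, and leaving out an siRNA it ran from 0.14 to 0.33 between lines. Leaving out an array leaves no residual degree of freedom, so counts could not be fitted. NOLC1 was called in each setting run with the block.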

Other observations

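The 6 genes of the wider lists that came nearest to the threshold without passing it are given here, and they were chosen after their values were seen. Above 0 in both lines were DHX37, a helicase of the small subunit processome (0.87 in H1299 and 0.62 in A549; limma adjusted p = 0.0513), TCOF1, the treacle protein of RNA polymerase I transcription (0.79 and 0.59; limma adjusted p = 0.0544), and EMG1, an 18S rRNA methyltransferase (1.02 and 0.61; limma adjusted p = 0.0579). Below 0 in both lines were DCAF13, a small subunit processome protein (−0.63 and −0.74; limma adjusted p = 0.0506), PAK1IP1, a large subunit factor (−0.63 and −0.65; limma adjusted p = 0.0541), and MXD1, a MAX partner that opposes MYC (−0.73 and −0.58; limma adjusted p = 0.0555).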
